A study of Homo sapiens with 9 samples.

Results

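The 40 interferon-stimulated genes described here are the classical antiviral and signalling genes induced by interferon, chosen by gene name from the 36225 genes of the deposited expression table. All 40 names matched a row, and 39 of them passed the filter on low counts that left 21492 genes for testing. CXCL10, a chemokine, was the member that did not pass. The cells were RBE, an established line from a human intrahepatic cholangiocarcinoma, which is bile duct cancer arising inside the liver. Poly(A) RNA was sequenced from 3 libraries of each of 3 lentiviral groups. The shIDH1 group received a short hairpin RNA against IDH1, the cytosolic isocitrate dehydrogenase, the shJOSD2 group a hairpin against JOSD2, a Josephin-domain deubiquitinase, and the control group a scramble lentivirus, per the series' design text. The series title concerns mutant IDH1, JOSD2 and YAP/TAZ, and the allele of IDH1 in these cells is not among the sample labels. Each target has 1 hairpin group. Whether replicate libraries stem from independent infections is not among the labels, so the p-values reflect the scatter of the sequenced libraries alone, and that scatter may be technical.

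Type I and type III interferons bind surface receptors whose JAK1 and TYK2 kinases activate STAT factors, STAT2 among them. With IRF9 these form a complex, ISGF3, that binds the interferon-stimulated response element (ISRE) in the promoters of most of these genes, while interferon gamma acts mainly through gamma-activated sites (GAS). The products sense foreign RNA, block translation or degrade RNA, modify proteins with the ubiquitin-like ISG15, or hold virions at membranes, and epithelial cells, bile duct cells included, express many of them at a low level without added interferon.

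Promoters of 6 members whose change against control was called under each of 19 alternative settings are shown first (IRF9 lost its call only under a further setting, described with its counts below), because they carry the elements by which this group of genes is known. They were picked only among members with an ISRE or GAS match in a window, so a match in all 6 was set by this choice. SAMD9L, whose shIDH1 call was also kept throughout, had neither element in its window and was left out for that reason. Each is the RefSeq window of GRCh38.p14 from 250 bases before to 50 bases after the gene start, 5′ to 3′ on the gene's strand, and capitals mark ISRE cores (GAAANNGAAA, either strand) and GAS cores (TTCNNNGAA). The windows are chr12:112938224-112938523 (plus strand) for OAS3, chr14:24161015-24161314 (plus) for IRF9, chr4:88456869-88457168 (plus) for HERC5, chr10:89327747-89328046 (plus; the first of the 2 windows of IFIT3), chr5:132490724-132491023 (minus) for IRF1 and chr1:1013247-1013546 (plus) for ISG15.
OAS3: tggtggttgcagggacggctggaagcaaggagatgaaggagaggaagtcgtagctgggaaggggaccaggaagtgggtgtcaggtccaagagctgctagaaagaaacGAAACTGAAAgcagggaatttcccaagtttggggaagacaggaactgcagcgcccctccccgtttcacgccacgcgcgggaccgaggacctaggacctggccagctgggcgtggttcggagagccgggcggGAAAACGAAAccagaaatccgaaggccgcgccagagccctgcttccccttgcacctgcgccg
IRF9: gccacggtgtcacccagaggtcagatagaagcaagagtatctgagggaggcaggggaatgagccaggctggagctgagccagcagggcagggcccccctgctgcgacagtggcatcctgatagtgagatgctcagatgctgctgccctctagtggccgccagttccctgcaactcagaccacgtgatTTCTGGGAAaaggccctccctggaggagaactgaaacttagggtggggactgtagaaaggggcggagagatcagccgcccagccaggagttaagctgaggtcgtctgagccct
HERC5: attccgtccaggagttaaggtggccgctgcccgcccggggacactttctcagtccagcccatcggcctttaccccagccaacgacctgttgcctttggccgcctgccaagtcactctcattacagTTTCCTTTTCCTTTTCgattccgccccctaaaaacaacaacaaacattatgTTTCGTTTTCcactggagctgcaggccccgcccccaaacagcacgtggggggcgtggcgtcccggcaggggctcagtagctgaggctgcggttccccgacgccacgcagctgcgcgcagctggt
IFIT3: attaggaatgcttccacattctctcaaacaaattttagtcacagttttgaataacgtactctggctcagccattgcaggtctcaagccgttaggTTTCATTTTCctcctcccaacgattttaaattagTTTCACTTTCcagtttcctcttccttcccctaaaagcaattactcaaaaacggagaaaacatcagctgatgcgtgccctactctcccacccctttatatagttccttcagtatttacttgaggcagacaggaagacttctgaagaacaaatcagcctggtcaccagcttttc
IRF1: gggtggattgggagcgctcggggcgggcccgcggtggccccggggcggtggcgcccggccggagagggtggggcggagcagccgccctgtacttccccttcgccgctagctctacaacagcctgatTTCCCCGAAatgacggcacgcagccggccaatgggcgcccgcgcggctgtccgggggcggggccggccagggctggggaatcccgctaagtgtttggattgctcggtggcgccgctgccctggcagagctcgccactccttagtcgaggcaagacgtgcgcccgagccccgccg
ISG15: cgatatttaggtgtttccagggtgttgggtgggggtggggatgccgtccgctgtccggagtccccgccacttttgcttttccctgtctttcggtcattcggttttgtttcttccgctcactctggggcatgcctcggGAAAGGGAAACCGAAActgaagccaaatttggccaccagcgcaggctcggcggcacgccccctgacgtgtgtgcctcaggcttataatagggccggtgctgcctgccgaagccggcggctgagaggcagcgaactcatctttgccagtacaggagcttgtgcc

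Counting the base before the start as -1, the OAS3 window held ISRE cores from -143 and from -12, and the ISG15 window held a pair of overlapping cores from -113 and from -107. HERC5 and IFIT3 carried their cores on the opposite strand, 3 in the HERC5 window and 2 in that of IFIT3. The IRF1 and IRF9 windows held a GAS core and no ISRE core. Of the 40 members, 34 had at least 1 window in the RefSeq table. An ISRE core stood in a window of 24 of these 34 genes (70.6%), against 1195 of all 27305 genes of that table (4.38%). A GAS core stood in 10 of 34 (29.4%), against 2560 of all genes (9.38%). Members called in either direction held ISRE cores: 6 of 10 higher and 5 of 7 lower members with a window in shIDH1 cells, and 12 of 16 that were not called. In shJOSD2 cells these numbers were 3 of 4 higher, 3 of 5 lower and 17 of 24 not called. A match describes the letters of the window only. IRF7, IFIT2, IFITM2, MX2, OAS2 and OASL had no entry.

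**Figure D1:**
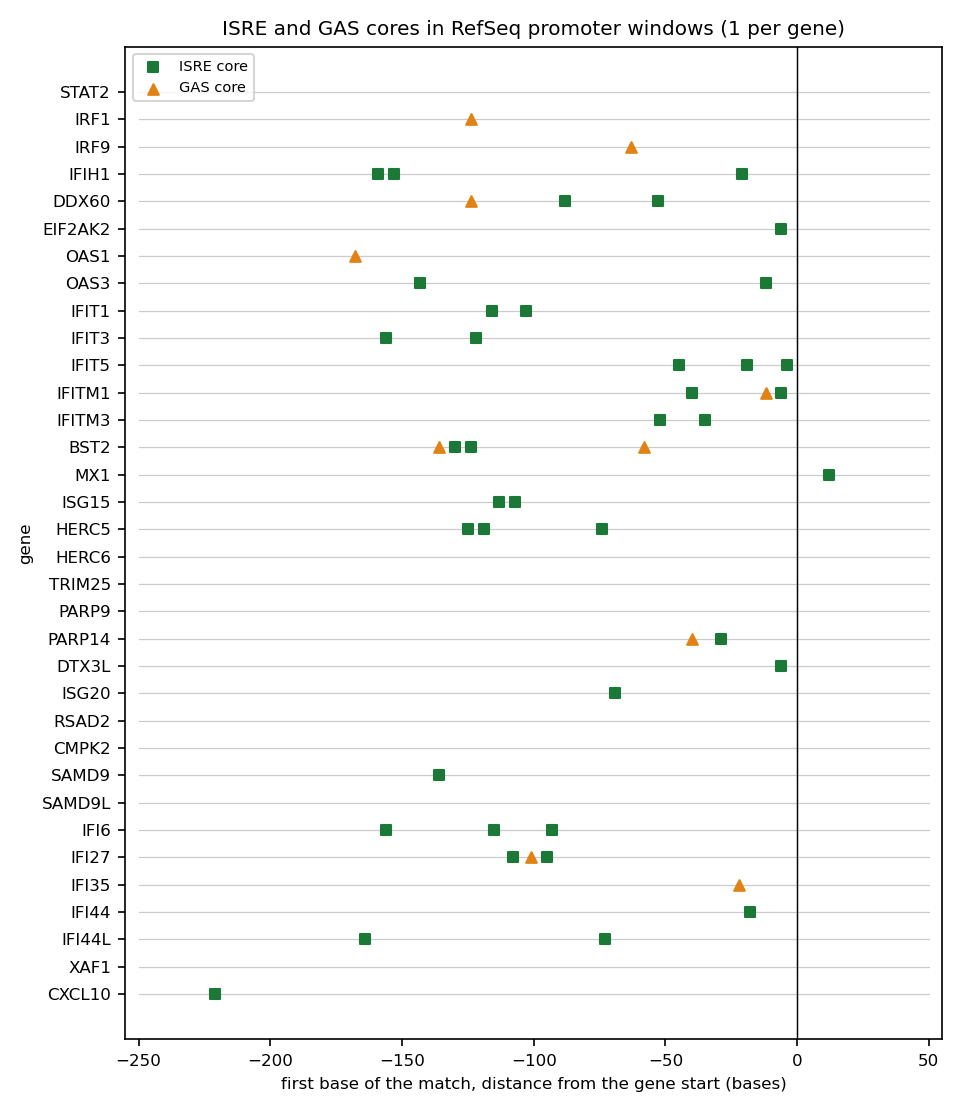
Positions of ISRE cores (squares) and GAS cores (triangles) in 1 promoter window for each of 34 members, by distance in bases from the gene start (vertical line). Where a member had several windows the first is drawn, so further cores in other windows of IFI27, IFI44, IFIT3, MX1, PARP9 and RSAD2 are not drawn, and most ISRE cores lie upstream of the start.

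Library totals lay between 66036276 and 71612713 deposited counts. Low counts gathered at multiples of 4, so counting error may be larger than the counts imply, which was not tested. IDH1 stood at 12.4, 13.1 and 12.3 FPKM (a level scaled by transcript length and library size) in shIDH1 libraries, against 32.7, 35.2 and 35.5 FPKM in shJOSD2 and 45.6, 38.9 and 47.4 FPKM in control libraries, and both hairpin groups lay below control. JOSD2 stood at 0.771, 0.708 and 0.906 FPKM in shJOSD2 libraries, against 6.66, 6.31 and 6.15 FPKM in control libraries, and at 1.51, 1.85 and 1.70 FPKM in shIDH1 libraries. Of 8 markers of bile duct cells all 8 were detected, led by keratins, with summed levels of 1825 to 1840 FPKM in shIDH1, 1468 to 1519 in shJOSD2 and 1581 to 1846 in control libraries. All 11 leukocyte markers were listed, with sums of 29.6 to 34.1 FPKM in shIDH1, 30.4 to 42.9 in shJOSD2 and 40.1 to 51.6 in control libraries, of which CD68 alone reached 31.8 FPKM. Some of these markers were uneven within a group. EVI2B stood at 0.981, 4.70 and 1.13 FPKM in control and 1.62, 1.79 and 4.92 FPKM in shJOSD2 libraries. LYZ stood at 2.71, 5.48 and 2.68 FPKM in control libraries. NKG7 was lowest in control replicate 2, at 0.730, 0.288 and 0.499 FPKM in control libraries. For plasmacytoid dendritic cells, the specialised producers of interferon, 3 of 4 markers were listed and sums were 0.548 to 0.714 FPKM in shIDH1, 0.656 to 0.852 in shJOSD2 and 0.298 to 0.533 in control libraries, mostly from IL3RA and TCF4. LILRA4 had at most 7 counts in any library, and CLEC4C was the marker not listed. Fibroblast markers summed to 35.5 to 37.2 FPKM in shIDH1, 33.9 to 35.0 in shJOSD2 and 14.9 to 17.7 in control libraries, mostly from ACTA2. Endothelial markers summed to 26.7 to 29.4 FPKM in shIDH1, 20.6 to 22.8 in shJOSD2 and 16.6 to 20.6 in control libraries, mostly from EGFL7. Hepatocyte markers summed to 115 to 123 FPKM in shIDH1, 65.0 to 67.9 in shJOSD2 and 41.1 to 98.2 in control libraries. Control replicates 2 and 3 stood apart in part of this list. APOA1, an apolipoprotein made by the liver, was at 2.51 to 3.25 FPKM in shIDH1 and 3.04 to 6.24 FPKM in shJOSD2 libraries, against 2.91, 40 and 45.5 FPKM in control replicates 1, 2 and 3, and ALB, APOB and AHSG were likewise highest in control replicates 2 and 3. SERPINA1 did not follow them, at 33.6, 37.8 and 33.9 FPKM in control replicates 1, 2 and 3, and FGB was at 41.9 to 44.7 FPKM in shIDH1, 7.01 to 7.35 in shJOSD2 and 1.53 to 1.87 in control libraries. Calls against control that were lost with control replicate 1 as sole control, which leaves control replicates 2 and 3 out, are given beside the results. No listed marker was at 0 in every library. The part of other cells in the values below was not tested, and in bulk RNA fewer cells of a type and less RNA per cell cannot be told apart.

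The group as a whole did not move in 1 direction under either hairpin. In shIDH1 cells, 11 of the 39 tested members were higher than in control and 7 were lower (edgeR's quasi-likelihood test, Benjamini-Hochberg adjusted p under 0.05 over all genes). Of all tested genes, 24.5% were called higher and 25.6% lower in that comparison, so the members' counts lie near the background. In shJOSD2 cells, 5 members were higher and 6 lower than in control, where 18.2% of all genes were called higher and 20.1% lower. The members' median log2 change was -0.02 in shIDH1 cells, against 0.01 over all tested genes, and 0.07 in shJOSD2 cells, against 0.03 over all genes. The shIDH1 median rested on single libraries, being 0.27 without control replicate 2 and -0.11 without control replicate 3. The count of 5 higher members in shJOSD2 cells was 3 without shJOSD2 replicate 3. Both comparisons share the 3 control libraries.

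**Figure D2:**
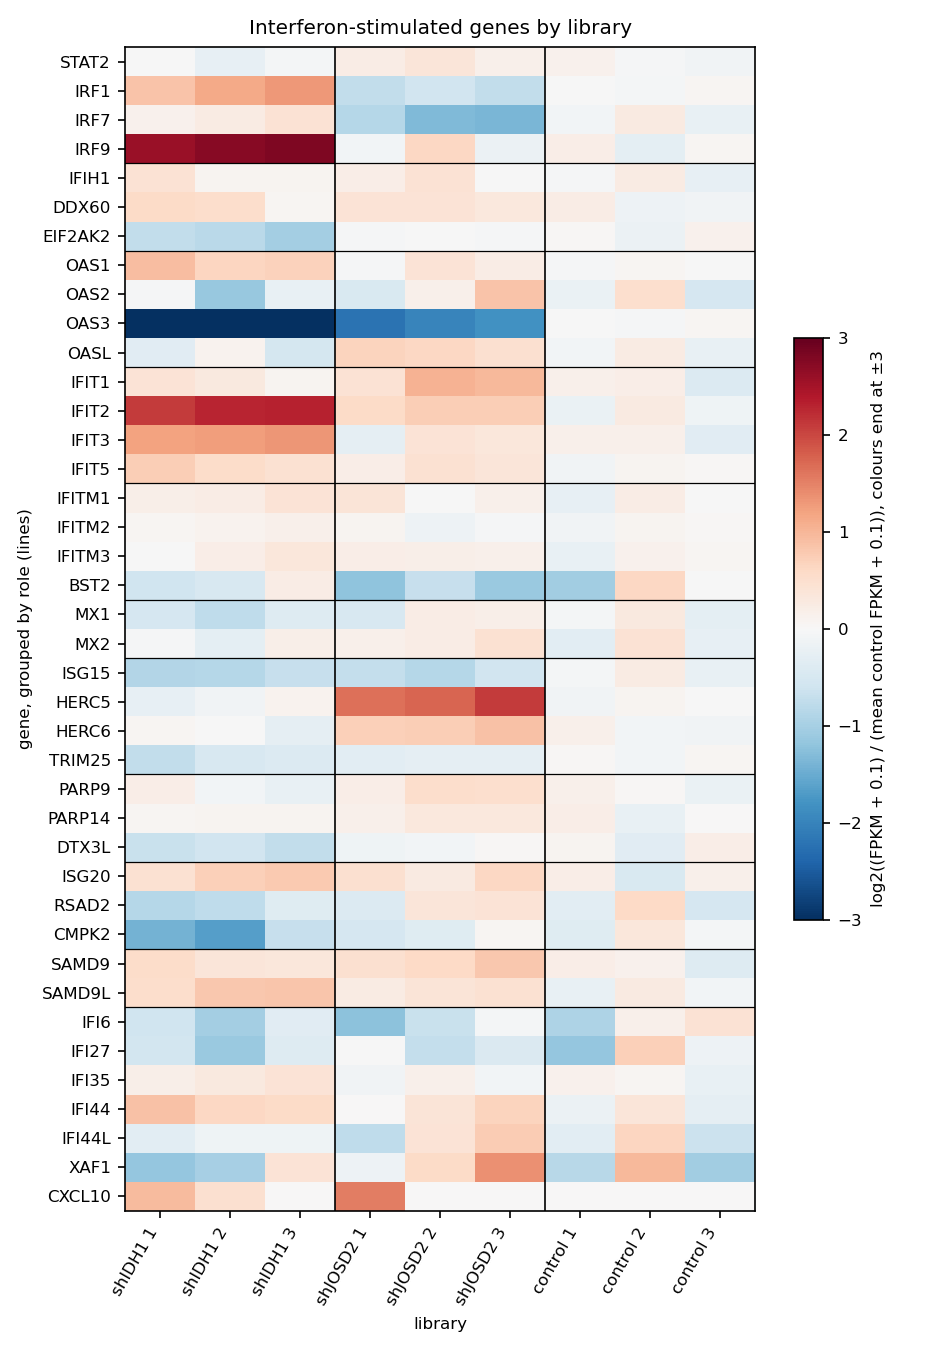
Level of each of the 40 members in each library as log2((FPKM + 0.1) / (mean control FPKM + 0.1)), with the shIDH1, shJOSD2 and control libraries from left to right and lines between roles. Single genes such as OAS3, IFIT2, HERC5 and IRF9 as counted stand out in all libraries of a group, while IFI27 and XAF1 vary between the libraries of 1 group. The counts of IRF9 are uncertain, because another gene covers it on the same strand.

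Levels were low to moderate. In each of the groups 3 members averaged at least 10 FPKM: IFITM3 at 83.7 to 123 FPKM over the 9 libraries, IFITM2 at 39.2 to 48.7 FPKM and TRIM25 at 11.1 to 19.6 FPKM. Below 1 FPKM on average were 17 members in shIDH1, 19 in shJOSD2 and 18 in control libraries.

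**Figure D3:**
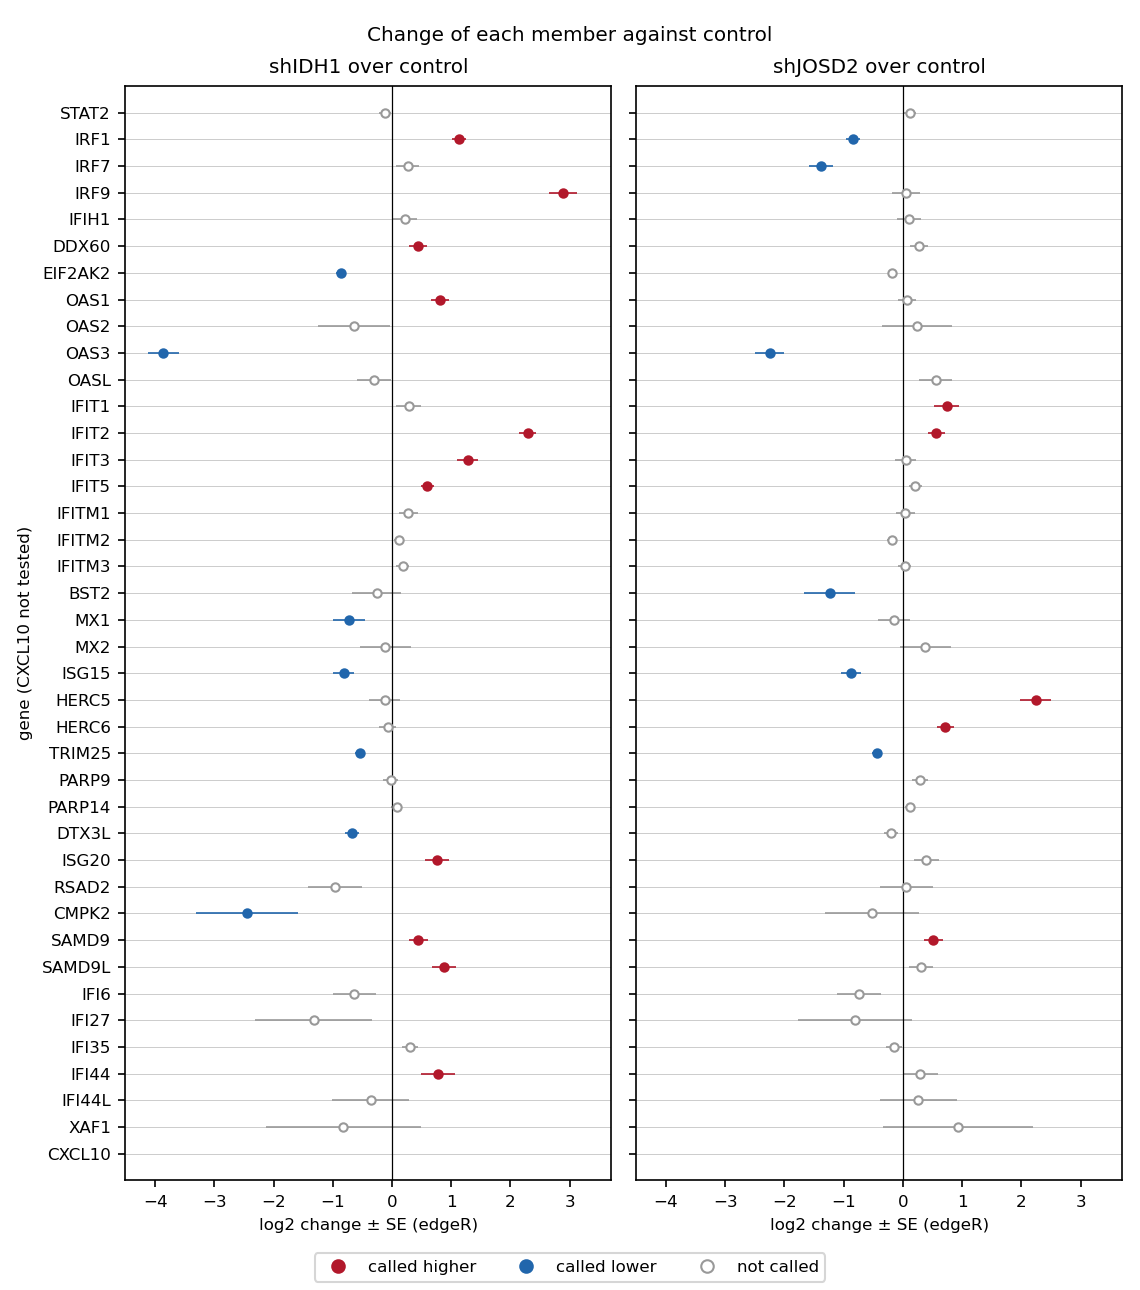
Fitted log2 change with its standard error for each tested member in shIDH1 cells (left) and shJOSD2 cells (right) against control. Filled points passed the adjusted threshold: 11 higher and 7 lower in shIDH1 cells, 5 higher and 6 lower in shJOSD2 cells.

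Among the transcription factors, IRF1 rose in shIDH1 cells and fell in shJOSD2 cells. IRF1 (ENSG00000125347; GRCh38 chromosome 5, 132481609 to 132490773, minus strand), which activates interferon and antiviral genes directly, stood at 6.24, 7.65 and 8.61 FPKM in shIDH1 libraries, against 2.02, 2.28 and 2.03 FPKM in shJOSD2 and 3.38, 3.31 and 3.58 FPKM in control libraries. All shIDH1 libraries lay above and all shJOSD2 libraries below every control library. The log2 change was 1.13 (SE 0.11; edgeR's quasi-likelihood test, adjusted p = 3.41e-06) in shIDH1 cells and -0.84 (SE 0.11; adjusted p = 9.28e-05) in shJOSD2 cells.

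IRF7 (ENSG00000185507; chromosome 11, 612553 to 615983, minus strand), the factor that amplifies type I interferon production, was lower in shJOSD2 cells. It stood at 2.5, 2.76 and 3.11 FPKM in shIDH1 libraries, against 1.22, 0.855 and 0.827 FPKM in shJOSD2 and 2.15, 2.77 and 1.96 FPKM in control libraries. The shIDH1 range overlapped that of control and the shJOSD2 range lay below both. In shJOSD2 cells the log2 change was -1.39 (SE 0.20; edgeR adjusted p = 0.000173), and in shIDH1 cells 0.27 (SE 0.20; adjusted p = 0.290).

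IRF9 (ENSG00000213928; chromosome 14, 24161265 to 24166565, plus strand), the DNA-binding subunit of ISGF3, stood at 3.28, 3.63 and 3.79 FPKM in shIDH1 libraries, against 0.435, 0.768 and 0.394 FPKM in shJOSD2 and 0.542, 0.356 and 0.487 FPKM in control libraries. Every shIDH1 library lay above all others, with a log2 change of 2.88 over control (SE 0.24; edgeR adjusted p = 6.84e-07), and the shJOSD2 and control ranges overlapped. These counts are uncertain, because a gene of the table named AL136295 (ENSG00000259529; chromosome 14, 24147548 to 24166452) covers 5188 bases of IRF9 on the same strand.
The overlapping gene had 2423, 2892 and 3566 counts in shIDH1 libraries, against 3866, 4198 and 4182 counts in shJOSD2 and 3593, 3999 and 3266 counts in control libraries. Its log2 change in shIDH1 cells was -0.31 over control (SE 0.13; edgeR adjusted p = 0.0571), which was not called. Against shJOSD2 it was -0.36 (SE 0.13; edgeR adjusted p = 0.0339), called lower in shIDH1 cells. IRF9 itself had 855, 925 and 1024 counts in shIDH1 libraries, against 120, 199 and 104 counts in shJOSD2 and 147, 98 and 131 counts in control libraries. The sums were 3278, 3817 and 4590 counts in shIDH1 libraries, 3986, 4397 and 4286 counts in shJOSD2 libraries and 3740, 4097 and 3397 counts in control libraries. With IRF9 counted as this sum, a choice made after the data were seen, the shIDH1 libraries overlapped the others. The log2 change over control was then 0.05 (SE 0.12, edgeR adjusted p = 0.766), and the IRF9 call was lost. The overlapping gene held most of each sum, so a change in IRF9 alone could go unseen in it. The sum therefore does not decide whether IRF9 rose. How the counting divided reads between these genes was not tested.
STAT2 (ENSG00000170581), the transactivating subunit of ISGF3, averaged 2.38 ± 0.193 FPKM in shIDH1, 3.07 ± 0.253 in shJOSD2 and 2.56 ± 0.225 in control libraries (SD, n = 3 each) and was called in neither comparison.

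The oligoadenylate synthetases, which sense double-stranded RNA and activate RNase L, split within a single gene cluster. OAS3 (ENSG00000111331; chromosome 12, 112938444 to 112968054, plus strand) stood at 0.334, 0.133 and 0.333 FPKM in shIDH1 libraries, against 0.765, 0.915 and 1.04 FPKM in shJOSD2 and 3.85, 3.78 and 4.08 FPKM in control libraries. The 3 groups did not overlap. The level was 14.5-fold lower in shIDH1 cells (log2 change -3.86, SE 0.27; edgeR adjusted p = 1.29e-07) and 4.75-fold lower in shJOSD2 cells (-2.25, SE 0.24; adjusted p = 1.57e-05), and it was the largest fall of any member in each comparison. OAS1, whose annotated end lies 6301 bases upstream of OAS3, was higher in shIDH1 cells, at 1.56 ± 0.179 FPKM in shIDH1 and 0.882 ± 0.0309 FPKM in control libraries (SD, n = 3 each), with a log2 change of 0.81 (SE 0.16; edgeR adjusted p = 0.000818). In shJOSD2 cells OAS1 averaged 1.03 ± 0.17 FPKM and was not called. OAS2, 10340 bases downstream of OAS3, stood between 0.0349 and 0.433 FPKM in the 9 libraries and was not called. OASL, a catalytically inactive relative, was called in neither comparison with control.

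Of the RNA sensors and the RNA-dependent kinase, EIF2AK2 fell in shIDH1 cells. EIF2AK2 (ENSG00000055332; chromosome 2, 37099210 to 37157065, minus strand) encodes PKR, which halts translation by phosphorylating eIF2-alpha. It stood at 3.64, 3.48 and 2.96 FPKM in shIDH1 libraries, against 5.93, 6.07 and 5.97 FPKM in shJOSD2 and 6.32, 5.36 and 6.67 FPKM in control libraries. The shIDH1 libraries lay below all others (log2 change -0.87 over control, SE 0.08; edgeR adjusted p = 2.42e-06), and the shJOSD2 range lay within that of control.
DDX60, a helicase of the RNA sensing pathway, was called higher in shIDH1 cells at 1.44 ± 0.284 FPKM, against 1.06 ± 0.165 FPKM in control cells (SD, n = 3 each), although the ranges overlapped. Its log2 change of 0.43 lost the call without shIDH1 replicate 1 (edgeR adjusted p = 0.117), shIDH1 replicate 2 (0.126), control replicate 2 (0.104) or control replicate 3 (0.0912). The call was also lost without the filter (edgeR adjusted p = 0.0582) and with limma on log2(FPKM + 1) (0.0759) or log2(FPKM + 0.1) (0.0798). With control replicate 1 as sole control it was lost at a log2 change of 0.24. IFIH1, the sensor MDA5, was called in neither comparison.

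The IFIT genes, whose products bind viral RNA and inhibit its translation, lie together on chromosome 10. In shIDH1 cells 3 of 4 were higher than control, and in shJOSD2 cells 2 of 4, where 24.5% and 18.2% of all tested genes were called higher. IFIT2 (ENSG00000119922; 89283694 to 89309271, plus strand) stood at 8.03, 9.16 and 9.34 FPKM in shIDH1 libraries, against 2.72, 3.09 and 3.09 FPKM in shJOSD2 and 1.56, 2.20 and 1.64 FPKM in control libraries. The 3 groups did not overlap, and the level was 4.89-fold higher in shIDH1 cells (log2 change 2.29, SE 0.14; edgeR adjusted p = 6.35e-08) and 1.48-fold higher in shJOSD2 cells (0.57, SE 0.14; adjusted p = 0.00680).
IFIT3 (ENSG00000119917; 89327997 to 89340971, plus strand) stood at 9.05, 9.37 and 9.86 FPKM in shIDH1 libraries, against 3.21, 5.17 and 4.97 FPKM in shJOSD2 and 4.30, 4.29 and 3.04 FPKM in control libraries. Only the shIDH1 libraries stood clear of control, with a log2 change of 1.28 (SE 0.18; edgeR adjusted p = 6.49e-05).
IFIT5 was higher in shIDH1 cells by 0.60 on the log2 scale (SE 0.11; edgeR adjusted p = 0.000699), at 4.01 ± 0.397 FPKM in shIDH1 and 2.64 ± 0.174 FPKM in control libraries (SD, n = 3 each). IFIT1 showed the other order: it averaged 1.33 ± 0.166 FPKM in shIDH1, 2.03 ± 0.449 in shJOSD2 and 1.09 ± 0.261 in control libraries (SD, n = 3 each). It was called in shJOSD2 cells only (log2 change 0.74, SE 0.21; edgeR adjusted p = 0.0142), a call lost without shJOSD2 replicate 2 (adjusted p = 0.0608) or replicate 3 (0.0516) or with control replicate 1 as sole control (0.114), and its direct difference between the hairpins was -0.46 (SE 0.21; adjusted p = 0.0969).
IFIT1, IFIT2 and IFIT3 lie on the opposite strand within the span of LIPA, the lysosomal acid lipase gene, and the strand setting of the counting is not given in the sources used here. LIPA stood at 58.8, 58.8 and 53.5 FPKM in shIDH1 libraries, against 26, 27.6 and 26.1 FPKM in shJOSD2 and 23.5, 16.4 and 18.1 FPKM in control libraries. Whether LIPA reads entered the IFIT counts was not tested. IFIT5, on the plus strand, lies just outside that span, with its start at 89414568. LIPA, on the minus strand, starts at 89414557.

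ISG15 and TRIM25 were lower under both hairpins. ISG15 (ENSG00000187608; chromosome 1, 1001138 to 1014540, plus strand), the ubiquitin-like modifier, stood at 4.36, 4.48 and 4.99 FPKM in shIDH1 libraries, against 4.89, 4.45 and 5.42 FPKM in shJOSD2 and 7.76, 9.72 and 6.91 FPKM in control libraries. All hairpin libraries lay below all control libraries. The log2 change was -0.82 in shIDH1 cells (SE 0.17; edgeR adjusted p = 0.00146) and -0.87 in shJOSD2 cells (SE 0.17; adjusted p = 0.00144), and the difference between the hairpins was 0.06 (SE 0.17; adjusted p = 0.829).
TRIM25, a ubiquitin ligase that supports RIG-I signalling, averaged 12.9 ± 1.58 FPKM in shIDH1, 15.4 ± 0.371 in shJOSD2 and 18.8 ± 1.04 in control libraries (SD, n = 3 each). Its log2 change was -0.54 in shIDH1 cells (SE 0.08; edgeR adjusted p = 0.000174) and -0.43 in shJOSD2 cells (SE 0.08; adjusted p = 0.00143). DGKE lies across 29690 bases of TRIM25 on the opposite strand, with at most 2210 counts against 13204 for TRIM25.
HERC5 (ENSG00000138646; chromosome 4, 88457119 to 88506163, plus strand), the main ligase that attaches ISG15 to proteins in human cells, rose in shJOSD2 cells. It stood at 0.115, 0.136 and 0.171 FPKM in shIDH1 libraries, against 0.694, 0.756 and 0.991 FPKM in shJOSD2 and 0.138, 0.171 and 0.153 FPKM in control libraries. Every shJOSD2 library lay above all others, with a fitted level 4.72 times that of control (log2 change 2.24, SE 0.26, edgeR adjusted p = 2.69e-05), while the shIDH1 and control ranges overlapped.
The neighbouring HERC6, a relative of HERC5, was also higher in shJOSD2 cells, at 1.36 ± 0.0934 FPKM in shJOSD2 and 0.749 ± 0.0876 FPKM in control libraries (SD, n = 3 each; log2 change 0.72, SE 0.15; edgeR adjusted p = 0.00205). With control replicate 1 as sole control its adjusted p was 0.0784.

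**Figure D4:**
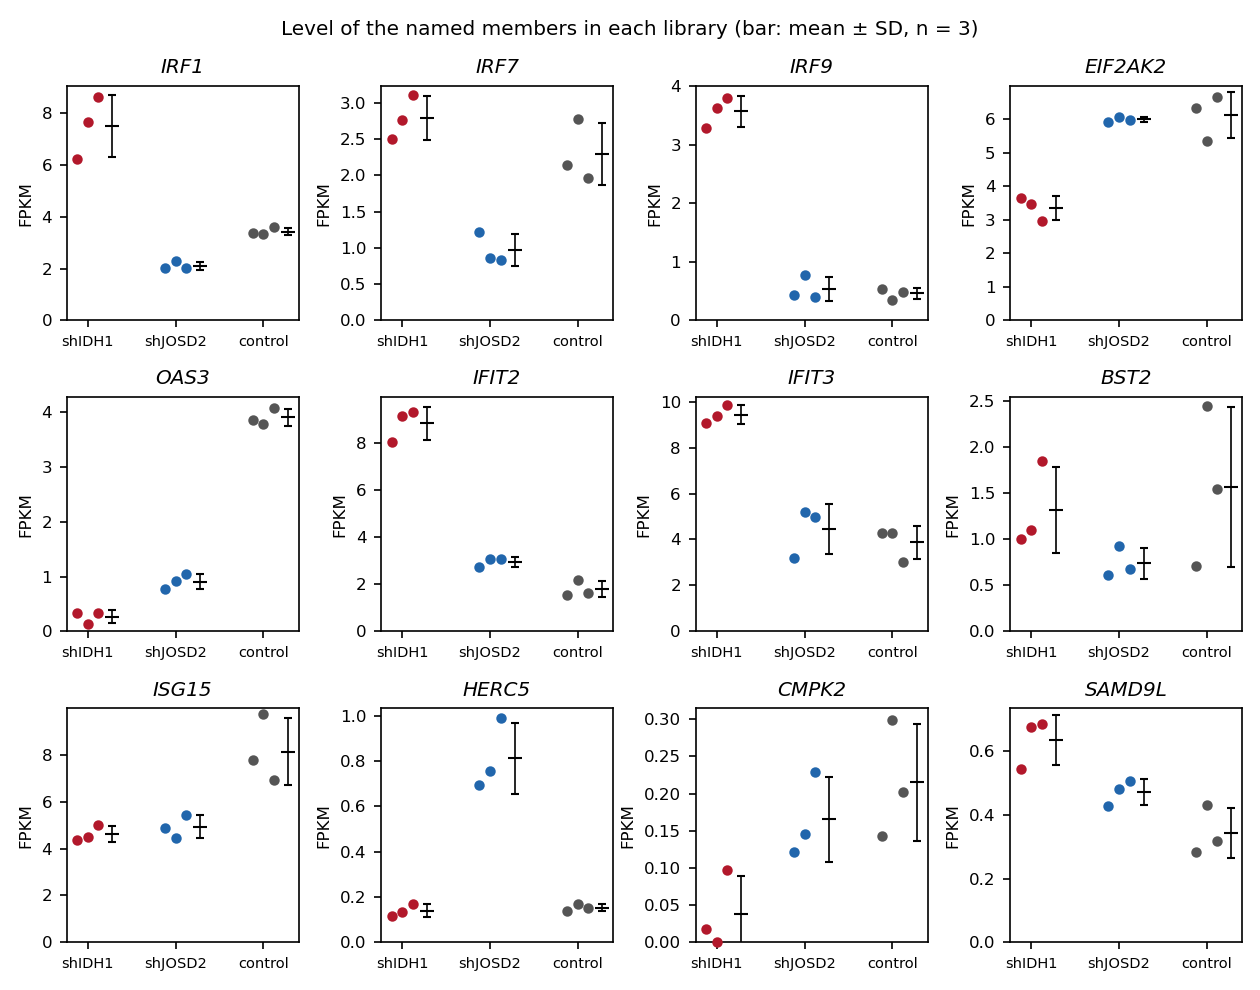
FPKM in each library (points) with the mean ± SD of 3 libraries (bars) for the 12 members described library by library, with shIDH1, shJOSD2 and control from left to right and axes from 0. OAS3 separates the 3 groups at 0.133 to 0.334, 0.765 to 1.04 and 3.78 to 4.08 FPKM, whereas the control range of BST2 overlaps that of each hairpin group.

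Among the membrane proteins that restrict entry and release of viruses, IFITM1, IFITM2 and IFITM3 were called in neither comparison with control. The log2 changes of these 3 genes lay between 0.11 and 0.27 in shIDH1 cells and between -0.18 and 0.04 in shJOSD2 cells. They are close paralogs, and IFITM1 lies wholly inside the span that the table gives for IFITM2, so the division of reads among them is uncertain.
BST2 (ENSG00000130303; chromosome 19, 17402939 to 17405630, minus strand), which encodes tetherin, stood at 0.997, 1.10 and 1.85 FPKM in shIDH1 libraries, against 0.616, 0.928 and 0.672 FPKM in shJOSD2 and 0.709, 2.45 and 1.54 FPKM in control libraries. The control libraries alone spread 3.45-fold and overlapped both hairpin groups. Its call in shJOSD2 cells (log2 change -1.23, SE 0.43; edgeR adjusted p = 0.0395) was lost in 11 of the 19 alternatives, with an adjusted p of 0.209 without control replicate 2, 0.0777 without control replicate 3, 0.127 without shJOSD2 replicate 1, 0.0566 without shJOSD2 replicate 2, 0.116 without shJOSD2 replicate 3 and 0.0515 without shIDH1 replicate 2. The log2 change was -0.74 without control replicate 2 and -0.04 with control replicate 1 as sole control.

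SAMD9L (ENSG00000177409; chromosome 7, 93130056 to 93148385, minus strand), a growth-restricting antiviral factor, stood at 0.542, 0.673 and 0.683 FPKM in shIDH1 libraries, against 0.427, 0.482 and 0.505 FPKM in shJOSD2 and 0.282, 0.430 and 0.318 FPKM in control libraries. The shIDH1 libraries lay above all others (log2 change 0.88 over control, SE 0.21; edgeR adjusted p = 0.00335), and the shJOSD2 range overlapped that of control.
Its neighbour SAMD9 was called higher in both comparisons, by 0.45 in shIDH1 cells and 0.52 in shJOSD2 cells on the log2 scale (SE 0.16 for each; edgeR adjusted p = 0.030 and 0.0194). The shIDH1 call was lost without shIDH1 replicate 1 (edgeR adjusted p = 0.10), 2 (0.0536) or 3 (0.0504) or control replicate 3 (0.0807). It was also lost without the filter (0.0639) and with limma on log2(FPKM + 1) (0.0511). The shJOSD2 call was lost without shJOSD2 replicate 3 (edgeR adjusted p = 0.0794). With control replicate 1 as sole control these calls had an adjusted p of 0.209 and 0.157.
DTX3L, a ubiquitin ligase that pairs with PARP9, was lower in shIDH1 cells at 2.78 ± 0.160 FPKM, against 4.45 ± 0.852 FPKM in control cells (SD, n = 3 each; log2 change -0.67, SE 0.12; edgeR adjusted p = 0.000382). PARP9 and PARP14, which modify proteins with ADP-ribose, were called in neither comparison. ISG20, an exonuclease that degrades RNA, was higher in shIDH1 cells by 0.77 on the log2 scale (SE 0.21; edgeR adjusted p = 0.00772), at 0.900 ± 0.116 FPKM in shIDH1 and 0.530 ± 0.148 FPKM in control libraries (SD, n = 3 each). With control replicate 1 as sole control its adjusted p was 0.0978.

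CMPK2 (ENSG00000134326; chromosome 2, 6840570 to 6865819, minus strand), a mitochondrial nucleotide kinase, stood at 0.0175, 0 and 0.0966 FPKM in shIDH1 libraries, against 0.121, 0.145 and 0.229 FPKM in shJOSD2 and 0.143, 0.299 and 0.203 FPKM in control libraries. These values rest on 0 to 32 counts in shIDH1, 40 to 69 in shJOSD2 and 45 to 94 in control libraries. The shIDH1 libraries lay below all others, with a log2 change of -2.45 over control (SE 0.87, edgeR adjusted p = 0.0331). The call was lost without shIDH1 replicate 1 (adjusted p = 0.107), control replicate 2 (0.104) or control replicate 3 (0.0596). It was also lost without the filter (edgeR adjusted p = 0.0864) and with only the 2 groups compared (0.0566). With control replicate 1 as sole control it was lost at a log2 change of -1.80. RSAD2, which encodes viperin and starts 14 bases inside CMPK2 on the other strand, was not called in shIDH1 cells (log2 change -0.97, SE 0.46; edgeR adjusted p = 0.102).
MX1, a GTPase that traps viral ribonucleoproteins, was called lower in shIDH1 cells by a log2 change of -0.72 (SE 0.27; edgeR adjusted p = 0.0432). That call was lost in 11 of 19 alternatives, among them without shIDH1 replicate 1 (adjusted p = 0.0862), shIDH1 replicate 2 (0.143), shJOSD2 replicate 2 (0.0552), shJOSD2 replicate 3 (0.0589), control replicate 1 (0.0589) or control replicate 2 (0.189, log2 change -0.48), and with control replicate 1 as sole control (0.223). MX2 was called in neither comparison.
IFI44 was called higher in shIDH1 cells by 0.78 (SE 0.29, edgeR adjusted p = 0.0418). The adjusted p lay between 0.0547 and 0.126 without shIDH1 replicate 1, 2 or 3, shJOSD2 replicate 2, control replicate 1 or control replicate 3. The IFI44 call was also lost without the filter (edgeR adjusted p = 0.0795) and with a replicate block (0.0514). With control replicate 1 as sole control it was lost at a log2 change of 1.05.
IFI6, IFI27, IFI35, IFI44L and XAF1 were called in neither comparison. CXCL10 had 8, 4 and 0 counts in shIDH1 libraries, 17, 0 and 0 counts in shJOSD2 libraries and 0 counts in all 3 control libraries, too few to test.

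Several members varied within a group as much as between groups. IFI27 had the widest range among controls, at 44.9-fold. It stood at 0.0646, 0.0115 and 0.0835 FPKM in shIDH1 libraries, against 0.137, 0.0463 and 0.0778 FPKM in shJOSD2 and 0.00658, 0.296 and 0.117 FPKM in control libraries. XAF1 stood at 0, 0.0126 and 0.199 FPKM in shIDH1 libraries, against 0.101, 0.233 and 0.478 FPKM in shJOSD2 and 0.0252, 0.337 and 0.00912 FPKM in control libraries. Together with IFI44L and BST2 they were the 4 tested members with at least a 3-fold range among controls, and all 4 were highest in control replicate 2 of the controls and in shIDH1 replicate 3 of the shIDH1 libraries. Their summed level was 1.15, 1.23 and 2.24 FPKM in shIDH1 libraries, against 0.892, 1.42 and 1.52 FPKM in shJOSD2 and 0.826, 3.34 and 1.72 FPKM in control libraries.
Over all 39 tested members, shIDH1 replicate 3 was the highest library of its group for 23 (59.0%, against 27.3% of all tested genes). Control replicate 2 was likewise the highest control for 23 of 39 members (59.0%, against 25.6% of all tested genes). In the shJOSD2 group replicates 2 and 3 were highest for 15 and 17 members (38.5% and 43.6%, against 34.0% and 34.8% of all tested genes).

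Set against each other directly, the hairpins differed in 16 members, 10 higher and 6 lower in shIDH1 than in shJOSD2 cells, where 20.8% of all genes were called higher and 24.0% lower. IRF1 differed by 1.98 on the log2 scale (SE 0.12; edgeR adjusted p = 5.87e-08), IRF7 by 1.65 (SE 0.20; adjusted p = 2.78e-05), IFIT2 by 1.72 (SE 0.14; adjusted p = 8.44e-07) and IFIT3 by 1.23 (SE 0.18; adjusted p = 0.000107), all higher in shIDH1 cells. IRF9 differed by 2.83 as counted and by -0.012 as the sum with its overlapping gene (SE 0.12; adjusted p = 0.948). Lower in shIDH1 than in shJOSD2 cells were HERC5 (-2.37, SE 0.26; edgeR adjusted p = 1.06e-05), OAS3 (-1.61, SE 0.25; adjusted p = 0.000201), OASL (-0.86), HERC6 (-0.79), EIF2AK2 (-0.69) and DTX3L (-0.47). The other higher members were OAS1 (0.74), SAMD9L (0.57), IFI35 (0.46), IFIT5 (0.39) and IFITM2 (0.30, with overlapping ranges).
The OASL call was lost without shIDH1 replicate 1 or 3 or shJOSD2 replicate 1 or 2 (adjusted p 0.0664 to 0.0956), and the SAMD9L call without shIDH1 replicate 2 or 3 or any shJOSD2 replicate (0.0648 to 0.12). The IFI35 call was lost without shIDH1 replicate 3 or shJOSD2 replicate 1 or 3 (0.0571 to 0.0638), the IFIT5 call without shIDH1 replicate 1 or shJOSD2 replicate 1 (0.0582 and 0.0629) and the IFITM2 call without shJOSD2 replicate 2 (0.0551). Without scaling the SAMD9L, IFI35, IFIT5 and IFITM2 calls were lost as well (edgeR adjusted p 0.083 to 0.15). The SAMD9L, IFIT5 and IFITM2 calls were also lost with limma on log2(FPKM + 1) (0.0735 to 0.0991) or log2(FPKM + 0.1) (0.0920 to 0.158). Without the filter the SAMD9L call was lost too (edgeR adjusted p = 0.0671). Without TMM scaling, 6 members were higher and 12 lower, and the median of all genes lay at -0.21, against -0.06 with it.

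Genes that act before or around these members were examined as 7 lists with 103 genes, called by edgeR's quasi-likelihood test at an adjusted p under 0.05. Interferon genes themselves were barely seen. Of 22 listed ligands 4 were in the table, IFNW1 with 3 counts and IFNL1 with 2 counts in shJOSD2 replicate 3, IFNG with 2 counts in shJOSD2 replicate 2 and IFNL4 with 1 count in control replicate 3, and all other libraries had 0 counts for them. The other 18 ligands were not analysed here.
Of the 9 receptor chains and kinases, 5 were higher and 1 lower in shIDH1 cells, and 2 were higher and 3 lower in shJOSD2 cells. Of all tested genes, 24.5% were called higher and 25.6% lower in shIDH1 cells, and 18.2% higher and 20.1% lower in shJOSD2 cells. IFNAR1, a chain of the type I interferon receptor, stood at 14.6, 14.9 and 13.1 FPKM in shIDH1 libraries, against 5.79, 6.49 and 5.36 FPKM in shJOSD2 and 9.78, 7.86 and 8.77 FPKM in control libraries. The 3 groups did not overlap, and the log2 change was 0.69 (SE 0.08) in shIDH1 cells and -0.73 (SE 0.09) in shJOSD2 cells, both called. IFNGR1, the ligand-binding chain of the interferon gamma receptor, stood at 20.3, 20.6 and 19.4 FPKM in shIDH1 libraries, against 13.7, 12.6 and 12.7 FPKM in shJOSD2 and 10.2, 9.55 and 9.91 FPKM in control libraries. It was higher by 1.02 (SE 0.06) and 0.24 (SE 0.06) under shIDH1 and shJOSD2, the second call being lost with control replicate 1 as sole control (edgeR adjusted p = 0.0776). TYK2 was lower in shIDH1 cells, at 5.20, 5.11 and 5.46 FPKM, against 8.91, 8.10 and 7.29 FPKM in control cells (log2 change -0.62, SE 0.08).
Among the STAT and IRF factors outside the members, STAT3, a factor of interleukin-6 signalling, was lower in shIDH1 cells, at 14.8, 13.1 and 12.7 FPKM, against 20.7, 17.9 and 19.3 FPKM in control cells, with no overlap (log2 change -0.51, SE 0.06). IRF3, which switches on interferon genes after nucleic acid sensing, was also lower in shIDH1 cells (log2 change -0.32, SE 0.07). Neither was called in shJOSD2 cells. IRF8 was lower in shJOSD2 cells (log2 change -0.30, SE 0.11). The IRF8 ranges overlapped, and its call was lost without shIDH1 replicate 2, any shJOSD2 replicate, control replicate 1 or control replicate 2 (edgeR adjusted p 0.0601 to 0.176). It was also lost with control replicate 1 as sole control (log2 change -0.25; adjusted p = 0.130), without scaling (-0.14; 0.315), and with limma on log2(FPKM + 1) (-0.12; 0.323) or log2(FPKM + 0.1) (-0.14; 0.320), without the filter (0.0837) and with only the 2 groups compared (0.0553).

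**Figure D5:**
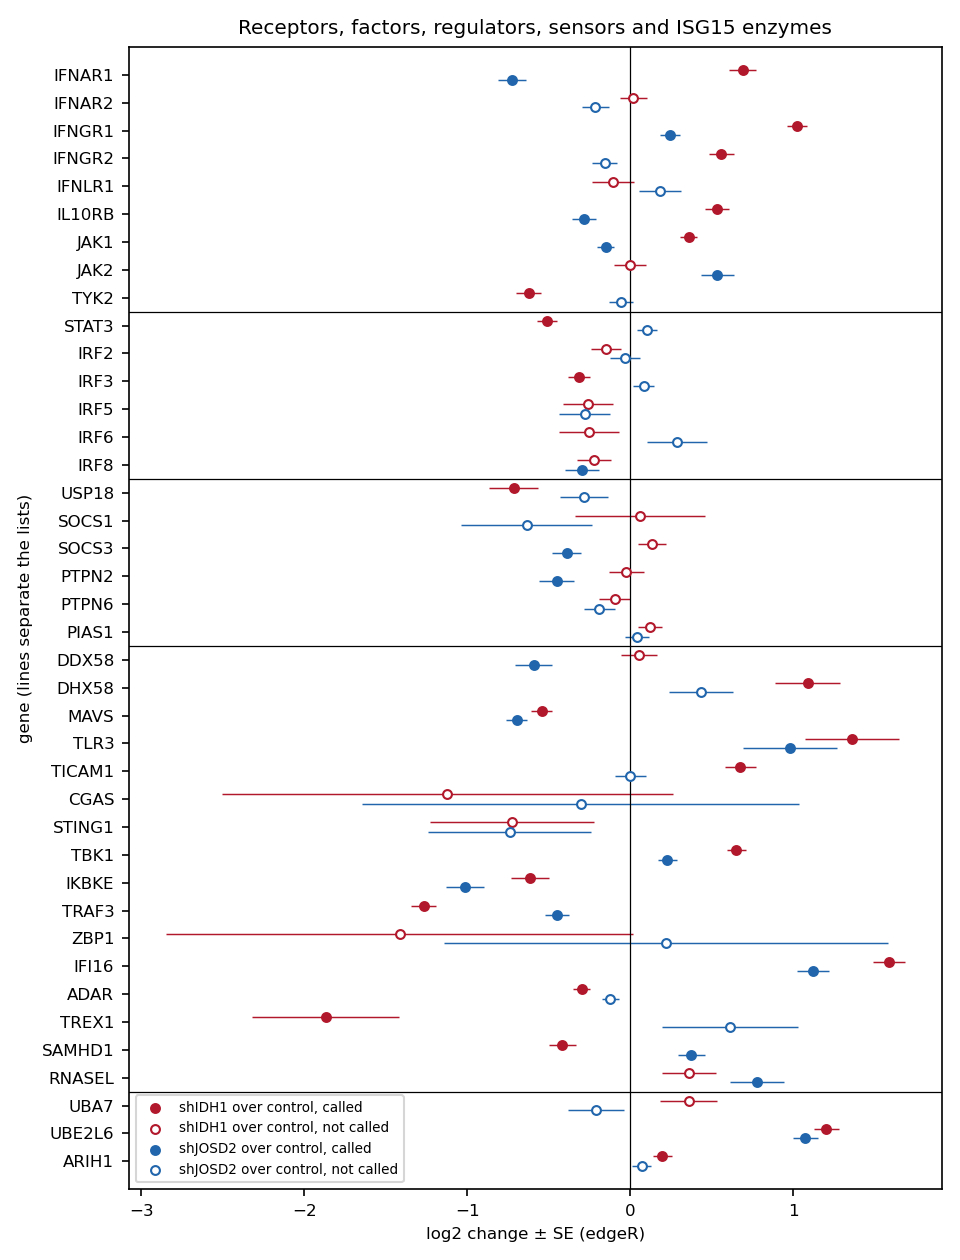
Fitted log2 change with its standard error of receptors and kinases, STAT and IRF factors (6 of 7 listed), negative regulators, nucleic acid sensors and ISG15 enzymes in shIDH1 cells and shJOSD2 cells against control, filled where called. IFNAR1 lies at 0.69 in shIDH1 and -0.73 in shJOSD2 cells, while UBE2L6 lies above 1 in both.

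Among 6 negative regulators, USP18, which removes ISG15 and restrains the type I receptor, was lower in shIDH1 cells at 1.91, 1.78 and 1.75 FPKM, against 3.31, 2.62 and 3.01 FPKM in control cells (log2 change -0.71, SE 0.15). In shJOSD2 cells SOCS3 and PTPN2 were lower, by log2 changes of -0.39 (SE 0.09) and -0.45 (SE 0.11). Both calls were lost with control replicate 1 as sole control, at log2 changes of -0.38 and -0.44. The SOCS3 call was also lost without scaling (edgeR adjusted p = 0.0626). The PTPN2 call was also lost with limma on log2(FPKM + 1) (adjusted p = 0.0742) or log2(FPKM + 0.1) (0.0890).
Of 16 nucleic acid sensors and adaptors, 5 were higher and 6 lower in shIDH1 cells, and 5 were higher and 4 lower in shJOSD2 cells, counts near the shares of all genes (24.5% higher and 25.6% lower in shIDH1, 18.2% and 20.1% in shJOSD2 cells). IFI16, a sensor of nuclear and cytosolic DNA, stood at 14.5, 17.0 and 17.0 FPKM in shIDH1 libraries, against 12.1, 13.1 and 13.6 FPKM in shJOSD2 and 6.12, 5.28 and 4.71 FPKM in control libraries. All hairpin libraries were above control, with log2 changes of 1.59 (SE 0.10) and 1.12 (SE 0.10) under shIDH1 and shJOSD2. TREX1, the exonuclease that removes cytosolic DNA, stood at 0.0770, 0.0522 and 0.162 FPKM in shIDH1 libraries, against 0.715, 0.716 and 0.557 FPKM in shJOSD2 and 0.273, 0.402 and 0.470 FPKM in control libraries. It was lower in shIDH1 cells (log2 change -1.87, SE 0.45) and not called in shJOSD2 cells (0.61, SE 0.42), and the shIDH1 call was lost with control replicate 1 as sole control (edgeR adjusted p = 0.0894). TLR3, the endosomal receptor for double-stranded RNA, was higher by 1.36 (SE 0.29) and 0.98 (SE 0.29) under shIDH1 and shJOSD2, at up to 0.581 FPKM. Its shJOSD2 call was lost without shJOSD2 replicate 3 (edgeR adjusted p = 0.0890), control replicate 2 (0.0673) or control replicate 3 (0.0605), and both calls with control replicate 1 as sole control (0.0812 in shIDH1 and 0.374 in shJOSD2 cells).
UBE2L6, the conjugating enzyme for ISG15, was higher under both hairpins although ISG15 itself was lower. It stood at 29.5, 34.6 and 32.3 FPKM in shIDH1 libraries and 31.6, 32.4 and 33.5 FPKM in shJOSD2 libraries, against 13.8, 14.5 and 13.5 FPKM in control libraries, with log2 changes of 1.20 (SE 0.08) and 1.07 (SE 0.08). The hairpin groups overlapped each other and both lay above control. UBA7, the activating enzyme, was called in neither comparison with control. ARIH1, also of this list, was called higher in shIDH1 cells only. That call was lost without shIDH1 replicate 2 (edgeR adjusted p = 0.0731) or control replicate 2 (0.0561). It was also lost with limma on log2(FPKM + 1) (adjusted p = 0.0837) or log2(FPKM + 0.1) (0.0794). With control replicate 1 as sole control it was lost at a log2 change of 0.14.
Of 40 further interferon-induced effectors 36 were tested, and 16 were higher and 9 lower in shIDH1 cells, and 9 were higher and 8 lower in shJOSD2 cells. The shares of all tested genes were 24.5% higher and 25.6% lower in shIDH1 cells, and 18.2% and 20.1% in shJOSD2 cells. The list's median log2 change was -0.02 in shIDH1 and -0.10 in shJOSD2 cells, where the medians of all genes were 0.01 and 0.03. APOL1, the trypanolytic apolipoprotein, had the largest change of the list in shIDH1 cells, at 2.35, 2.31 and 2.29 FPKM in shIDH1 libraries, against 0.603, 0.804 and 0.450 FPKM in shJOSD2 and 0.513, 0.411 and 0.639 FPKM in control libraries (log2 change 2.15, SE 0.23). Its relative APOL3 rose by 1.89 (SE 0.27) in shIDH1 cells, and BATF2, a transcription factor, by 1.78 (SE 0.31) in shIDH1 and 1.16 (SE 0.31) in shJOSD2 cells. The shJOSD2 call of BATF2 was lost without shJOSD2 replicate 2 (edgeR adjusted p = 0.0584) or with control replicate 1 as sole control (0.0814).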

How the data were processed

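The 9 libraries were grouped by their labels into shIDH1, shJOSD2 and control. StringTie 1.3.4d, HISAT2 2.0.4, cutadapt 1.9, UMI-tools and the build GRCh38 are named in the submitters' processing notes. What each tool did, how reads were counted, whether by strand, and how molecular identifiers were used is not given in the sources used here. The deposited table gives, per the file headers, a count per gene and library, whole and without normalization. It also gives deposited FPKM values, named so per the file headers, which are scaled by length and library size. Levels and ranges by library rest on these values, without the TMM scaling that entered the folds and log2 changes. TMM factors were 1.07 to 1.08 in shJOSD2, 0.958 to 0.977 in shIDH1 and 0.942 to 0.985 in control libraries. All 9 libraries entered 1 edgeR 4.0.16 fit in R 4.3.3 with a mean per group, filterByExpr and TMM scaling, followed by the quasi-likelihood test, with p-values adjusted by Benjamini-Hochberg across 21492 genes and a threshold of 0.05. Standard errors were obtained by dividing the size of the log2 change by the root of the F statistic. The same fit was also run on counts simulated with the spread it had estimated from these data. Pairs of replicates differed beyond sampling noise (chi-square 3.62 to 10 per degree of freedom, counts divided by 4), so none was counted as repeated. The members, the pathway lists and the named genes were chosen with earlier results of these data known. Values by library are given for members called against control with a log2 change of at least 1 in size, filled up to 12 with the next largest. Up to 3 called genes of each pathway list were picked by the size of their change, and values by library are given for part of these. The other genes named fall outside this rule. Alternatives were DESeq2 1.42.0, RLE factors, no scaling, no filter, counts divided by 4, limma 3.58.1 on log2(FPKM + 1) and log2(FPKM + 0.1), a replicate block, only the 2 groups compared, control replicate 1 as sole control, assumed to vary like the other groups, and each library left out. The sum of IRF9 with its overlapping gene was added after the data were seen. Promoters came from RefSeq (GRCh38.p14), and figures were drawn with matplotlib 3.10.9. A result on 1 gene of the pathway lists is not reported here.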

Additional observations from a re-analysis of the deposited data

How the results depend on the processing

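Of 45 calls of members over the 3 comparisons, 30 were kept under all 19 alternatives and 15 were lost under at least 1. No called member turned its direction under these 19. The 30 include the IRF9 calls of shIDH1 over control and over shJOSD2. Both were lost when IRF9 was summed with its overlapping gene, a setting outside the 19. The median log2 change of the members in shIDH1 cells over control was 0.051 with counts divided by 4 and 0.28 when control replicate 1 was the sole control, and lay between -0.11 and 0.27 with single libraries left out. In shJOSD2 cells, 8 members were higher without scaling, 8 with limma on log2(FPKM + 1) and 2 with that sole control, and 3 to 6 with single libraries left out; the median was 0.22 without scaling, where the median of all genes lay at 0.18. Between shIDH1 and shJOSD2, 6 members were higher without scaling, and the number of lower members was 12 without scaling, 11 with limma on log2(FPKM + 1) and 10 with limma on log2(FPKM + 0.1). The median of that comparison was -0.20 without scaling, -0.0037 with counts divided by 4, -0.18 with limma on log2(FPKM + 0.1) and -0.0066 with only the 2 groups, and lay between -0.096 and 0.0057 with single libraries left out. The IRF9 difference between the hairpins was -0.012 when it was summed with its overlapping gene. The cause of the other shifts was not tested. Same-numbered libraries did not deviate together (correlations -0.018 to 0.0378), so the numbers were not taken as pairs; with a replicate block 10 members were higher and 6 lower in shIDH1, 5 and 6 in shJOSD2, and 10 and 6 between the hairpins.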
